A study of Lathyrus oleraceus with 4 samples.

Results

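The entries described here were detected at a sizeable level in every flower bud measurement titled Arka Chaitra and had no count at all in those titled Matar Ageta. An entry is 1 row name of the deposited tables, a gene identifier of a transcriptome assembly. An entry was a member when its deposited signal, a count scaled to nearly equal column sums, was at least 20 in all 4 Arka Chaitra columns and its estimated count was 0 in all 4 Matar Ageta columns. This rule was met by 257 of 127533 entries, or 0.202%. The cultivar difference and the level in Arka Chaitra chose the members, so both are given as a description, without a test.

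RNA was sequenced from pea (Pisum sativum, in GEO as Lathyrus oleraceus), using unopened buds before anthesis, when the flower opens. The series holds 4 samples, 1 for each combination of cultivar and treatment. Arka Chaitra, described by the submitters as heat-tolerant, and Matar Ageta, described as susceptible, were either held at 35 °C for 2 h and harvested at once or kept at a day temperature of 22 °C and a night temperature of 16 °C. The groups are thus Arka Chaitra heat, Arka Chaitra control, Matar Ageta heat and Matar Ageta control, and no label says from how many plants a sample came.

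Cultivars are named here by the sample titles. The genotype tag names the other cultivar in every sample (0 of 4 tags match the title), so a member is an entry of the libraries titled Arka Chaitra, and with the tags taken at their word the cultivar names would be exchanged. All batch tags read genotype, so the cultivar and a batch that goes with it cannot be told apart. Each library stands in the tables as 2 numbered columns that no label explains. They were summed and counted as 1 sample, and their separate values are given as a measure of spread within a library. Summed totals were 22721707 estimated counts for Arka Chaitra heat, 24247298 for Arka Chaitra control, 32711024 for Matar Ageta heat and 30439930 for Matar Ageta control.

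Flower buds before anthesis hold the developing anthers and pollen, which are among the plant tissues most easily damaged by heat. Plant cells answer sudden heat by raising the RNA of heat shock proteins, chaperones that keep other proteins folded, under the control of heat shock transcription factors. Cultivars of a crop also differ in which genes they carry and which alleles they express without any stress. No gene name is paired with a row name, and 0 row names matched any of the 65673 genes of the RefSeq pea table (assembly CAAS_Psat_ZW6_1.0). No member can therefore be assigned to these or any other protein families, and marker genes of anther, pollen or other bud tissues could not be checked.

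A count of 0 in Matar Ageta was measured against considerable depth. The 4 Matar Ageta columns together held 63150954 estimated counts, and 3 of them, the limit that a count of 0 allows, correspond to 0.0467 CPM (the count scaled to library size, with TMM factors). The ratio of a member's Arka Chaitra level to that limit was 459-fold at the lowest, 866-fold at the median and 16510-fold at the highest. The rule asks for a signal of at least 20 and a count of 0, so large ratios follow from it. They describe the choice of members and do not measure the cultivar difference. The limit covers counting error only, and for an entry not chosen for its 0. Since 1 gene may be split over several entries and the estimation divides reads among similar ones, a 0 describes the entry and leaves the activity of the gene undetermined.

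Besides the members, other entries at this level had few Matar Ageta counts. Of 6367 entries at this level in Arka Chaitra, 257 (4.04%) had 0 counts in Matar Ageta. A further 20 had more than 0 and up to 1 count over the 4 Matar Ageta columns. Another 99 had more than 1 and up to 3, 157 had more than 3 and up to 10, and 4690 had more than 1000. The other 6110 entries at this level, hereafter the entries shared with Matar Ageta, had a median of 2649 Matar Ageta counts. The signal threshold fell within a continuum. The member just inside it, TRINITY_GG_2869_c0_g1, had signals of 20.09 and 20.04 in the heat columns and 21.6 and 25.1 in the control columns. The entry just outside, TRINITY_GG_28891_c0_g1, had 19.98 and 27.8 in the heat columns and 27.7 and 35.9 in the control columns. Lowest signals of 20 to 21 were found in 16 members, and lowest signals of 19 to 20 in 21 other entries without Matar Ageta counts.

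Most members were moderately abundant. The median signal over the members was 38.3 and 39.6 in the heat columns and 37.6 and 38.5 in the control columns. Averaged over the 4 columns, 130 members lay between 20 and 40, 95 between 40 and 100, 28 between 100 and 300 and 4 at 300 or more. The median of these averages was 39.7 for the members and 51.7 for the entries shared with Matar Ageta, and 50.6% of the members and 35.9% of the shared entries lay below 40. The signal has no gene length term, so such levels are read counts and not numbers of transcripts. Summed, the members took 1.71% and 1.76% of the signal of the heat columns and 1.51% and 1.61% of that of the control columns. The 10 members with the highest level held 22.2% of the members' summed signal, and the first 2 of them held 9.04%.

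**Figure D1:**
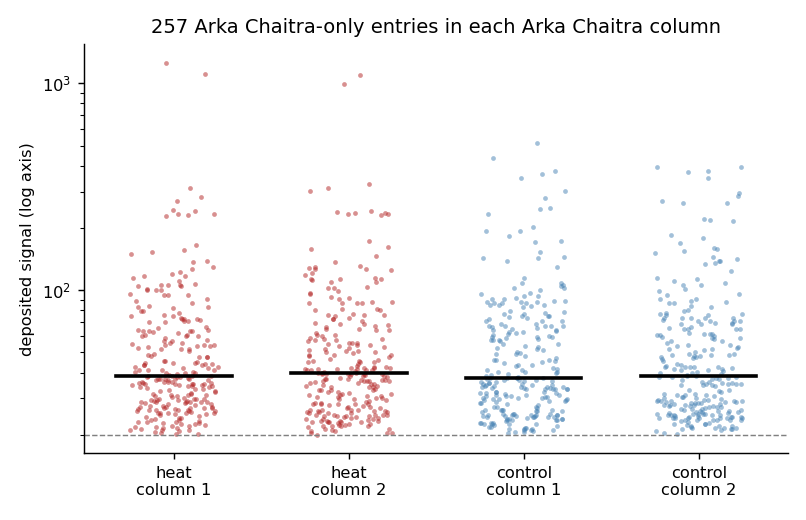
Deposited signal (log axis) of the 257 members in the 2 heat and the 2 control columns of Arka Chaitra; each point is an entry, black bars are medians and the dashed line is the threshold of 20. The medians lie between 37.6 and 39.6, and the pair of points near 1000 in both heat columns are the members with the highest mean level.

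The 2 members with the highest level were also the 2 with the largest rise after heat. TRINITY_GG_9890_c0_g1 had signals of 1110 and 1099 in the heat columns, against 435.6 and 392.2 in the control columns. Both heat values lay far above both control values, and the summed counts gave a log2 ratio of 1.42 (2.68-fold, exact 95% counting interval of the log2 ratio 1.39 to 1.46). TRINITY_GG_41083_c0_g1 had signals of 1261 and 996 in the heat columns, against 301 and 349 in the control columns. Its columns did not overlap either, and its log2 ratio was 1.80 (3.48-fold, counting interval 1.76 to 1.84). Averaged over the 4 columns their signals were 759 and 727, and that of the next member 372. The average includes the heat columns: after heat TRINITY_GG_9890_c0_g1 ranked 2 and TRINITY_GG_41083_c0_g1 ranked 1 among the members, with mean signals of 1105 and 1128, whereas in the control columns they ranked 2 and 5, with mean signals of 414 and 325. Ratios were taken on CPM scaled by TMM with 0.5 CPM added to both sides. With 1 sample per group there is no replicate check at the level of the plant, and the intervals cover counting error only.

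Heat was not accompanied by a general shift of the members. Their median log2 ratio of heat to control was -0.0013, with quartiles of -0.24 and 0.28, and 204 of 257 (79.4%) lay within 1.5-fold. An entry was counted as higher or lower when it reached 1 CPM in either library, differed at least 2-fold, and had a counting interval of the ratio that excluded 1. By this measure 5 members were higher after heat and 11 were lower. That is 1.95% and 4.28% of the members, against 21.0% and 14.3% of all 63677 entries with at least 1 CPM, most of which are far less abundant. Among the entries shared with Matar Ageta, which meet the same level rule, 1.98% were higher and 3.94% lower, and their median log2 ratio was -0.083. The members' shares were thus near those of the shared entries, and no member differed 4-fold. Because a member needs a signal of 20 in all 4 columns, an entry that is nearly absent in either treatment cannot be a member, which limits the size of the response that can be seen.

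**Figure D2:**
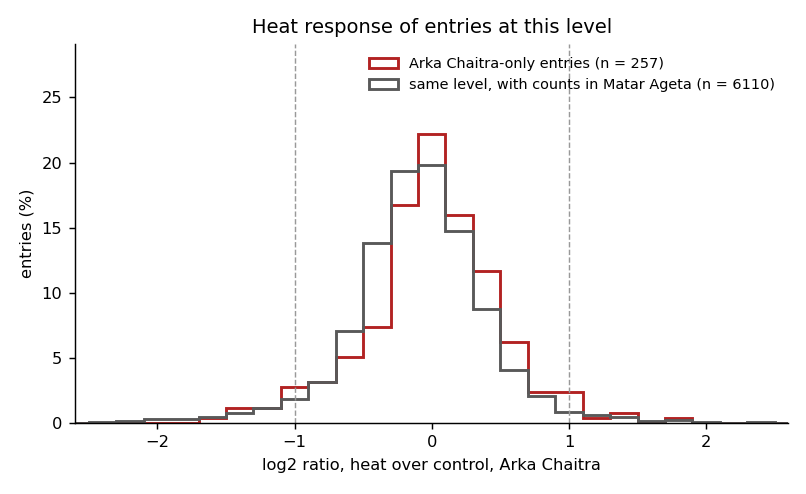
Distribution of the log2 ratio of heat to control in Arka Chaitra (0.2 per step) for the 257 members and for the 6110 entries of the same level with counts in Matar Ageta, in % of each set; dashed lines mark 2-fold, and 8 shared entries lie outside the plotted range. Both distributions centre near 0, with medians of -0.0013 and -0.083.

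The balance of directions among these few members depended on the scaling and on single columns. With libraries scaled by their total count, 9 members were higher and 8 lower, and with DESeq2 size factors 7 and 8. Leaving out control column 2 gave 16 higher and 11 lower, while leaving out heat column 1 gave 7 of each. The 5 and 11 of the main scaling therefore do not establish that decreases outnumbered increases.

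The 5 members counted as higher had mean signals of 54.5 to 1128 in heat, against 24.9 to 414 in control. In all 5, neither heat column fell below a control column. The call rests on the sums of these columns, so it favours this order, which is no separate check. Apart from the 2 abundant ones, they comprised entries of cluster numbers 48375, 27528 and 40316. The entry in cluster 48375 had signals of 110 and 95.6 in the heat columns, against 40.2 and 40.1 in the control columns, a log2 ratio of 1.36. In cluster 27528 the heat columns held 53.6 and 55.4, against 24.7 and 25.1 in the control columns, a log2 ratio of 1.12. The entry in cluster 40316 had 269 and 302 in the heat columns, against 139 and 142 in the control columns, a log2 ratio of 1.02, close to the 2-fold limit.

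The 11 members counted as lower had mean signals of 24.8 to 159 in heat, against 56.2 to 378 in control, and were 2.01-fold to 2.90-fold lower after heat. In all 11, each heat column was below both control columns, an order that the call on summed columns again favours. The largest decrease was that of TRINITY_GG_31025_c1_g1, with signals of 32.8 and 48.4 in the heat columns, against 90.5 and 139 in the control columns. Its log2 ratio was -1.53 (counting interval -1.66 to -1.44), and its control columns lay farther apart than those of most members counted as lower. TRINITY_GG_38792_c0_g1 had signals of 28.8 and 20.8 in the heat columns, against 76.5 and 60.4 in the control columns, without overlap. Its log2 ratio was -1.41 (counting interval -1.57 to -1.29). The most abundant of the 11, in cluster 5266, had signals of 156 and 162 in the heat columns, against 363 and 394 in the control columns, a log2 ratio of -1.26. In 1 of the 11, in cluster 10704, the heat columns themselves were over 2-fold apart (35.3 and 109) below control columns of 145 and 151.

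**Figure D3:**
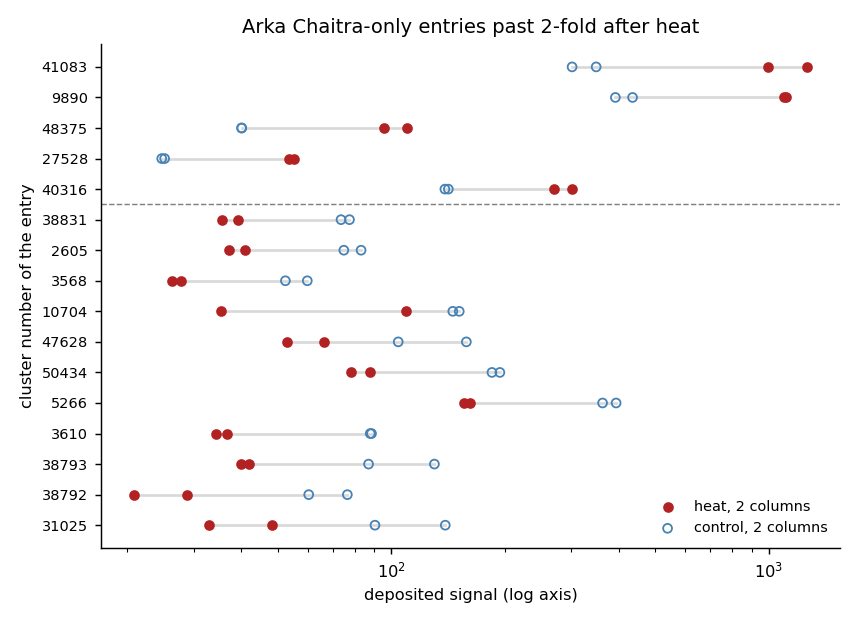
Deposited signal (log axis) in the 2 heat columns (filled red) and the 2 control columns (open blue) of the 16 members past 2-fold, labelled by cluster number; the 5 counted as higher stand above the dashed line and the 11 counted as lower below it. Heat and control columns do not overlap in any of the 16, which the choice by summed columns favours. The heat columns of cluster 10704 are the farthest apart, at 35.3 and 109.

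The order of single columns gave a finer view of members short of 2-fold. In 84 members (32.7%) the lower heat column exceeded the higher control column, in 87 (33.9%) the higher heat column was below the lower control column, and in 86 the treatments overlapped. The corresponding shares were 24.3% and 22.1% of all 63677 entries and 27.3% and 39.7% of the shared entries. Of the 241 members not counted as higher or lower, 79 had both heat columns above and 76 had both below, at log2 ratios between -0.99 and 0.99. With columns scaled by their total count, 99 members had both heat columns above and 60 both below, so the balance again followed the scaling.

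The columns of a library agreed well for the members. A difference of at least 2-fold between the 2 columns was found in 2 of 257 members (0.778%) in the heat library and in 9 (3.50%) in the control library. For the shared entries these shares were 0.475% in heat and 2.95% in control. The standard deviation of the log2 ratio of column 2 to column 1 over the members was 0.25 in heat and 0.39 in control. Between 1 heat and 1 control column, 5.84% to 11.7% of members were at least 2-fold apart in the 4 possible combinations, with standard deviations of 0.50 to 0.60. The heat and control columns come from separate samples, whereas no label says what separates the columns of a library, so the larger spread between treatments cannot be assigned to heat. In all, 10 members had a 2-fold gap between columns in either library, and 1 of these, in cluster 10704, was among the 16 counted as higher or lower.

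Each row name holds a cluster number, a component number and a gene number. Cluster numbers run to 69607 in the whole table, and the members fell into 256 of them, between 400 and 65958. Only cluster 2975 held 2 members. TRINITY_GG_2975_c0_g1 had signals of 114 and 114 in the heat columns, against 173 and 80.2 in the control columns, which overlap, and a log2 ratio of -0.091. TRINITY_GG_2975_c0_g2 had 38.3 and 36.3 in the heat columns, against 54.9 and 51.9 in the control columns, which do not overlap, and a log2 ratio of -0.50. Of the members, 206 (80.2%) were the first gene of component 0 of their cluster, against 87.6% of the shared entries and 54.2% of all entries.

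Most members lay in the stretches of cluster numbers where entries at this level in Arka Chaitra were themselves most frequent. When the numbers were divided into 70 windows of 1000, there were 26 windows with at least 100 entries at this level in Arka Chaitra, a limit chosen after seeing the data. They formed 4 unbroken runs, at cluster numbers 1 to 7000, 21001 to 32000, 38001 to 42000 and 48001 to 52000. These 26 windows held 229 of the 257 members (89.1%), against 64.3% of all entries at this level in Arka Chaitra and 34.1% of all entries. Members count among the entries that define the windows, so the windows are not independent of them. The 4 runs held 62, 71, 35 and 61 members, in that order, which is 5.56%, 4.13%, 6.48% and 8.50% of their entries at this level. The longest run was thus near the 4.04% of the whole table. The share was above 4.04% in 16 of the 26 windows and below it in 10. The other 44 windows held 28 members, at most 3 each, and 22 of them held none. Members made up 5.60% of the entries at this level in the 26 windows and 1.23% in the other 44. The window with the highest share, 2001 to 3000, had 20 members among 155 entries at this level (12.9%). Windows in which the share exceeded the overall 4.04%, which the members themselves define, numbered 20 and held 201 members. What the numbering follows is not given in the sources used here, and no position in the genome can be read from it.

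The mirror set was sparse in the 26 windows. Entries with a signal of at least 20 in all 4 Matar Ageta columns and 0 counts in all 4 Arka Chaitra columns numbered 69, which is 1.15% of the 6019 entries at that level in Matar Ageta. The 26 windows held 6 of these 69 (8.70%), although 42.5% of the entries at that level in Matar Ageta were there. The 48 windows with at least 1 member held 34 of the 69 (49.3%), and 71.6% of the entries at that level in Matar Ageta. Within the 26 windows the Matar Ageta-only entries made up 0.235% of the entries at that level in Matar Ageta, and in the other 44 windows 1.82%. The windows were selected by the number of Arka Chaitra entries, so part of this contrast is fixed by the choice.

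**Figure D4:**
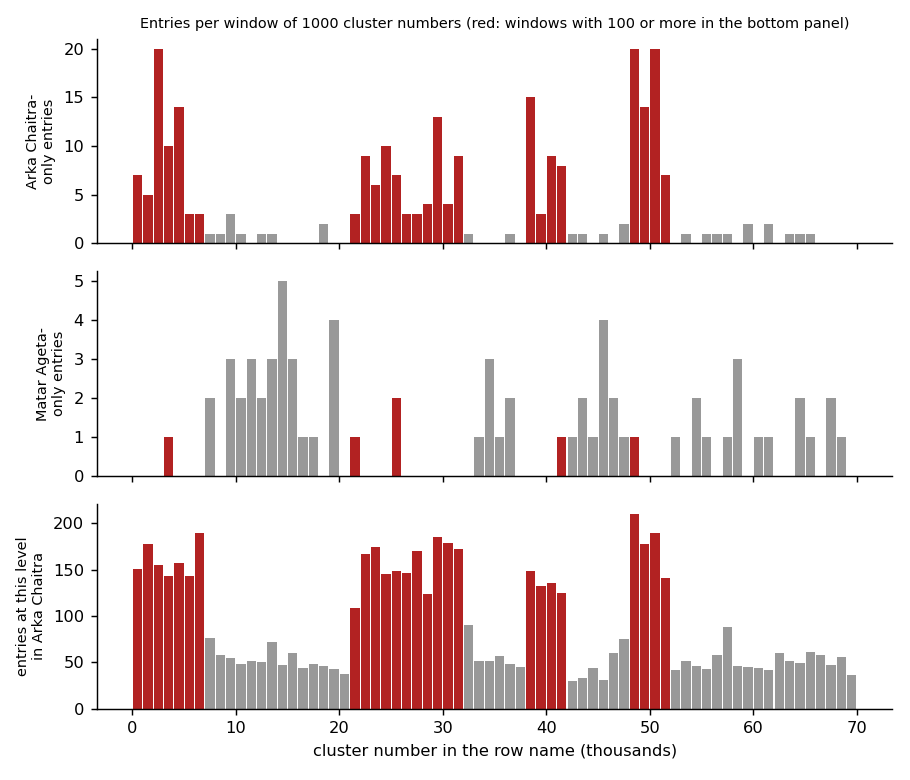
Number of members (top), of Matar Ageta-only entries (middle) and of entries at this level in Arka Chaitra (bottom) in each of 70 windows of 1000 cluster numbers; red bars mark the 26 windows with at least 100 entries in the bottom panel. The red windows hold 229 of 257 members and 6 of 69 Matar Ageta-only entries.

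In the 26 windows 4 of 229 members (1.75%) were higher after heat and 9 (3.93%) lower, with a median log2 ratio of -0.0038. Of the 3863 shared entries there, 1.97% were higher and 3.05% lower, with a median of -0.056. In the other 44 windows 1 of 28 members was higher and 2 were lower, with a median of 0.045. Of the 2247 shared entries there, 2.00% were higher and 5.47% lower, with a median of -0.13. The 28 members are too few to set their counts against these shares.

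Consecutive cluster numbers both held members in 5 cases, and 42 pairs of neighbouring members lay within 10 numbers of each other. The median gap was 52 numbers. The same counts were not taken for the shared entries. Entries at this level were themselves crowded into some stretches of numbers, and whether members lie closer together than such entries was not tested. The largest gap ran from 13131 to 18107. In 1 of the 5 consecutive cases both entries were lower after heat: cluster 38793, next to the 38792 named above, had signals of 39.95 and 42.1 in the heat columns, against 130 and 87.0 in the control columns, a log2 ratio of -1.37. Clusters 41691 and 41692 had nearly the same small ratio (0.18 each), whereas clusters 38404 and 38405 differed (-0.70 and 0.0087).

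Other entries of the same and of adjacent cluster numbers were set beside the members. For 113 members (44.0%) the cluster held no other entry, against 41.8% of the shared entries. Among the other 144 members, 94 shared their cluster with an entry that had a count in Matar Ageta, and 76 with an entry of at least 10 such counts. In the other 50 no entry of the cluster had a count in Matar Ageta. As a share of all members the 94 are 36.6%, against 46.9% of the shared entries, and the 76 are 29.6%, against 41.5%. Within the same component, an entry with a count in Matar Ageta was found for 35 members (13.6%, against 9.03% of the shared entries). For 43 of the 144 the strongest other entry reached 1 CPM in Matar Ageta, for 17 it reached 10 CPM, and for 5 it was at or above the member's own level in Arka Chaitra. These CPM levels were not counted for the shared entries. An entry with at least 10 counts in Matar Ageta and 0 in Arka Chaitra, the counterpart of a member, stood in the same cluster for 3 members (1.17%), against 7.61% of the shared entries. An adjacent cluster number held an entry with at least 10 counts in Matar Ageta for 230 members (89.5%), against 95.2% of the shared entries.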

How the data were processed

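The authors deposited 2 tables per cultivar over the same 127533 row names. One holds expected counts (estimated counts, not whole), which the deposited column totals of 10411488 to 21625288 show not to be normalized. The other holds a signal that the authors marked as TMM. On testing, it is the deposited count times 1 constant per column, with column sums of 961675 to 1062644. Without version or role, the submitters' processing notes name FastQC, STAR, Bowtie2, RSEM and also DESeq2. The genome build is not given in the sources used here, nor are the assembly parameters. Per the labels' protocols, the SMARTER mRNA-Seq kit was used.

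Groups follow the sample titles. Counts of the 2 columns were summed, and rounded for intervals. CPM used TMM factors over the 4 libraries (edgeR 4.0.16, R 4.3.3), and intervals of ratios are Clopper-Pearson (scipy 1.17.1). Single columns used the factor of their library. With 1 sample per group, no p-value was computed. Alternatives were the deposited signal, DESeq2 1.42.0 size factors, total counts, the pseudocount, the filter, the fold, the signal threshold, window widths and the omission of columns. Named entries are the 2 members with the largest ratio in each direction, the 2 most abundant, those beside the signal threshold and those of the cluster with most members. Other entries, given by cluster number, were chosen after their values were seen. The members, lists and tests were chosen with earlier results of these data known.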

Additional observations from a re-analysis of the deposited data

How the results depend on the processing

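No paired analysis was possible because the heat and the control sample of a cultivar share no replicate number and each group has 1 sample. The number of members was 548 at a signal of at least 10 and 89 at one of at least 40, and with single columns left out it was 265 to 354. It was 376 when up to 3 Matar Ageta counts were allowed and 265 on CPM. At 4-fold, 0 members were higher and 0 lower. Scaling by total count gave 9 higher members, and leaving out single columns gave 5 to 16 higher and 7 to 13 lower. The members' median log2 ratio was 0.047 with DESeq2 size factors, 0.077 with total counts and -0.031 to 0.044 without single columns, where the main value is -0.0013. Members sharing a cluster with an entry counted in Matar Ageta fell to 35 when the component had to match. Over the main results, 11 alternative values moved further, and 40 kept to within 1.5 times of their count or, for the median, to within the spread between columns. Some had little room to move. All members pass the filter on low values, so dropping it could not change their calls. Leaving out a column from the rule can only add members. The tally is thus not a full check of stability. The 26 windows rest on a limit of 100 entries chosen after seeing the data, and limits of 80 and 120 put 231 and 226 members there. Without Matar Ageta heat column 1, the deepest column, 354 entries met the rule. Without Matar Ageta heat column 2, the shallowest of that cultivar, 299 did. Without Matar Ageta control column 1 or control column 2 the numbers were 287 and 313. An effect of depth was not tested.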

Other observations

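Some entries without Matar Ageta counts were left out by the rule because they reached the level in 1 treatment of Arka Chaitra only. Of 24874 entries with 0 counts in all Matar Ageta columns, 658 had a signal of at least 20 in some Arka Chaitra column. Both heat columns and neither control column reached it in 68, of which 48 were at least 2-fold higher after heat. Both control columns and neither heat column reached it in 19, of which 9 were at least 2-fold lower. Over the whole table these column patterns were found in 756 and 624 entries, and how many of them differed 2-fold was not counted. Of all 63677 entries with at least 1 CPM, 21.0% were counted as higher and 14.3% as lower. The sets of 68 and 19 were formed from the treatment values themselves, which favours 2-fold differences. The counts are thus a description, with 1 sample per group.

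In 15 of the 68, both control columns held 0 counts, while the converse was found in 1 entry. The heat signals of the 15 ran from 28.0 to 229 in single columns. Their ratios to a limit of 3 counts in the control library were 243-fold to 1800-fold, and large ratios follow from the choice of these entries. The highest, in cluster 48784, had signals of 229 and 228 in the heat columns. The next, in cluster 6822, had 219 and 192. The 15 fell into 14 cluster numbers, and 4 of the 15 lay between 32001 and 33000, including the consecutive numbers 32210 and 32211. That window was picked as the one with most of the 15, and crowding was not tested. Among all 127533 entries, 54 reached the level in both heat columns with 0 control counts. Of these, 27.8% also had 0 in Matar Ageta, and in the other direction 1 of 3 did. For comparison, 24874 of all 127533 entries had 0 counts in Matar Ageta. The same held for 8.99% of the 756 entries with both heat columns and neither control column at the level. Whether the 27.8% is unusual was not tested. These 15 entries were picked for their pattern, and their values are given without a test.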
